A study of Danio rerio with 6 samples.

Results

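The nuclear genes of respiratory complexes II to V were followed in whole zebrafish embryos with a mutated dnajc21 gene and in wildtype embryos. The members were the rows of the count table whose symbol begins with sdha, sdhb, sdhc, sdhd, uqcr, atp5 or cox4 to cox8, and cyc1, 55 of 35197 rows in all. They divide into 9 rows of complex II, 9 of complex III, 18 of complex IV and 19 of complex V. The 3 mutant libraries came from embryos homozygous for a dnajc21 mutation, and the 3 wildtype libraries from wildtype embryos, all untreated and collected at 48 hours post-fertilization. Each library was made from a pool of 30 to 50 embryos. In the count table the wildtype libraries are named casper, which is a transparent strain mutated in mitfa and in mpv17, a gene of the inner mitochondrial membrane. The labels describe neither the dnajc21 lesion nor the strain of the mutants, so an effect of dnajc21 and a difference in strain cannot be told apart. The choice by symbol took in 4 assembly factors of complex II, sdhaf1 to sdhaf4, and left out COX5B and a COX7A2 row, both written in capitals.

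The respiratory chain of the inner mitochondrial membrane passes electrons to oxygen and stores the energy as a proton gradient. Complex II, succinate dehydrogenase, feeds electrons from the citric acid cycle to coenzyme Q, complex III passes them to cytochrome c, complex IV to oxygen, and complex V, the ATP synthase, uses the gradient to make ATP. Complex II is encoded wholly in the nucleus, whereas complexes III, IV and V also hold subunits encoded in mitochondrial DNA, which were not analysed here. Several complex IV subunits exist in alternative forms, and in mammals COX6A2, COX7A1 and COX8B are the forms of heart and skeletal muscle. Zebrafish keep duplicate copies of several subunit genes. Dnajc21 itself is a co-chaperone of large ribosomal subunit assembly.

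Total counts lay between 9826927 and 11798543 in mutant libraries and between 8600951 and 10635686 in wildtype libraries. The dnajc21 transcript held 16.9, 19.7 and 17.3 CPM in mutant replicates 1 to 3, against 22.6, 24.9 and 30.9 CPM in wildtype replicates 1 to 3 (log2 fold change -0.55, edgeR adjusted p = 0.00492, SE 0.12). CPM is a count per 1000000 counts of its library, after scaling by the trimmed mean of M-values (TMM). The mpv17 row held 0.506 to 1.31 CPM in mutants and 0.585 to 0.645 CPM in wildtype and was too low to test. Wildtype replicate 1 stood apart for the respiratory genes: of the 3 wildtype libraries it was the highest in 45 of the 53 members tested, against 36% of all genes tested. By a chi-square of raw counts over rows with enough counts (19830 to 20293 per pair of libraries), wildtype replicate 2 stood further apart. Genes with many counts weigh most in this measure. Per degree of freedom it was 27.0 for wildtype replicate 2 against wildtype replicate 1 and 28.6 against wildtype replicate 3. It was 2.08 to 2.78 between mutants and 5.62 between wildtype replicates 1 and 3. A principal component analysis of log2 CPM of all genes tested weighs genes otherwise. On its second axis (19.5% of the variance), wildtype replicates 1, 2 and 3 lay at 38.7, -32.7 and -3.77. There wildtype replicate 1 lay furthest from the other wildtype libraries. The main counts below are therefore also given without each of wildtype replicates 1 and 2.

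Most transcripts of the 4 complexes had slightly lower values in mutants than in wildtype, with similar medians in each complex. Of 53 members with enough counts to test, 44 had a negative log2 fold change of mutant over wildtype, 83% of them, against 51% of all 20229 genes tested. The median log2 fold change was -0.15 over the members, a decrease by 10.1%, and -0.01 over all genes tested. By complex the medians were -0.16 for complex II, -0.14 for complex III, -0.17 for complex IV and -0.15 for complex V. Single members ranged from -0.55 for sdhaf2 to 0.55 for cox8b. These are descriptions of the list, and no test was made over it.

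At an adjusted p under 0.05, 9 members fell and 1 rose (edgeR quasi-likelihood test, Benjamini-Hochberg adjustment over all genes tested). These 10 made up 18.9% of the members tested, beside 11.7% of all genes tested. In the lower direction the share was 17% of members beside 5.87% of all genes, and in the higher direction 1.89% beside 5.85%. In complex II 1 of 8 members was called (12.5%) and in complex III 1 of 9 (11.1%), shares near the 11.7% of all genes. In complex IV 4 of 17 were called (23.5%) and in complex V 4 of 19 (21.1%). In 30 of the 53 members every mutant library was lower than every wildtype library, which is 56.6% of them, beside 15.4% of all genes tested. In 3 members, 5.66%, the mutants lay wholly above wildtype, beside 15.1% of all genes. For 47 of the 53 members, 88.7%, the 95% interval of the fold change stayed within 1.5-fold in both directions, beside 60.5% of all genes. This share varied with the number of counts, at 97.8% of members with a mean of 10 CPM or more and 28.6% of those below. The contrast with all genes therefore does not by itself show smaller changes in the members. The plot of fitted changes shows the narrow band of small negative values. In whole-embryo RNA, fewer cells of a type and less RNA per cell cannot be told apart.

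**Figure D1:**
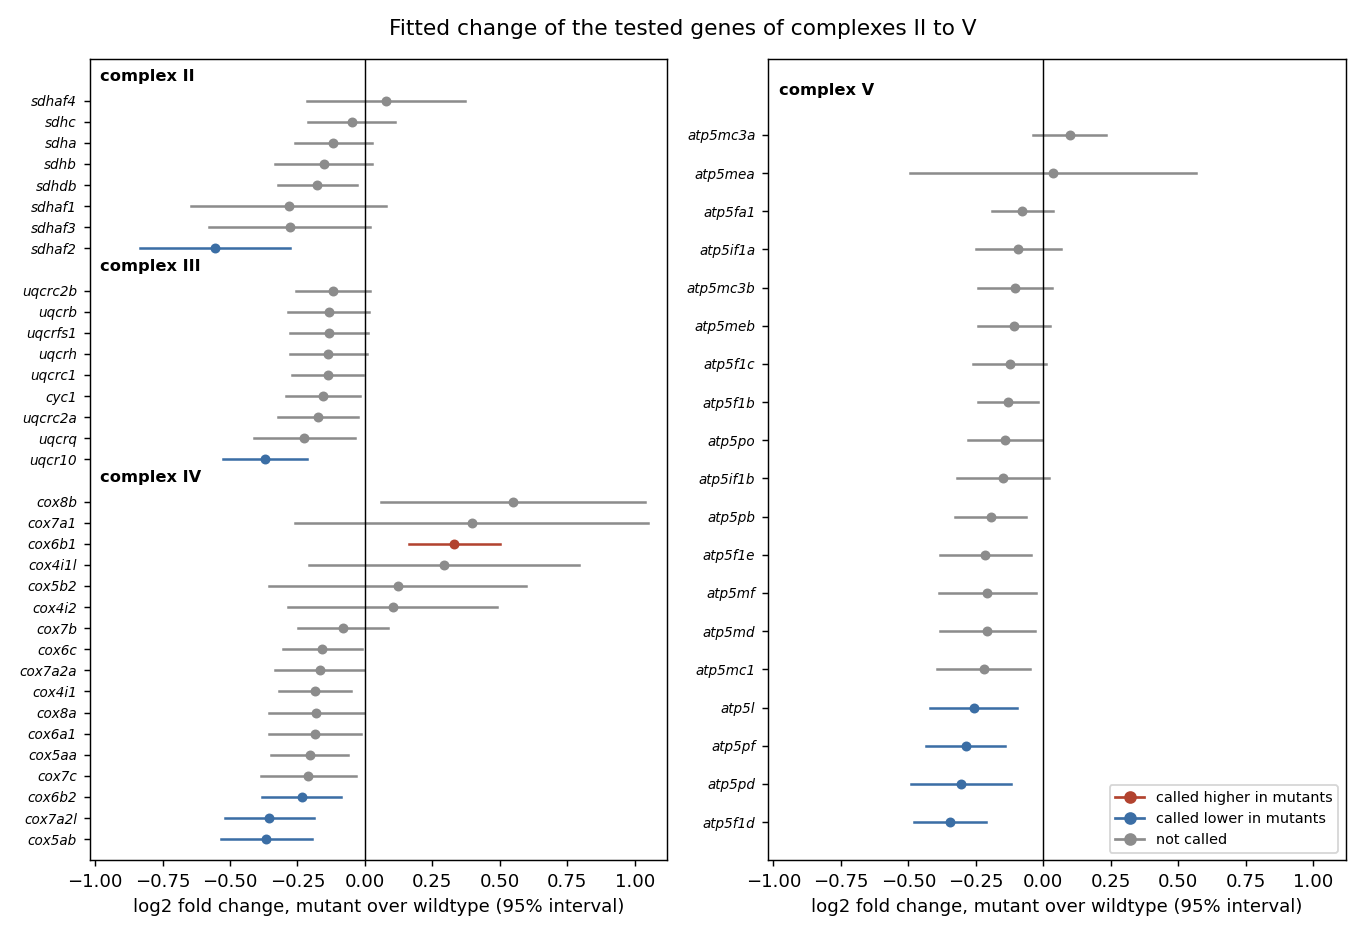
Log2 fold change of mutant over wildtype for the 53 tested members (x axis, points with 95% intervals), by complex and in order of fold change (y axis). Red marks the 1 member called higher, blue the 9 called lower and grey those not called, and most points lie between -0.4 and 0.

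Without wildtype replicate 1 the tendency was weaker and its direction held. Then 42 of 53 members had a negative log2 fold change, with a median of -0.10, and the mutants lay below wildtype replicates 2 and 3 in 30 members, 56.6%, beside 21.6% of all genes tested in that fit. The calls numbered 6 lower and 1 higher, 13.2% of the members beside 12.8% of all genes in the same fit, so that the share called was close to the background. By direction, 11.3% of the members were called lower beside 6.18% of all genes, and 1.89% higher beside 6.63%. Without wildtype replicate 2, 44 members had a negative value, with a median of -0.18, and the mutants were lower without overlap in 34 members, 64.2%, beside 20.7% of all genes. That fit called 8 members lower, 15.1% beside 4.95% of all genes, and 1 higher, 1.89% beside 5.26%. Leaving out a mutant library thinned the calls among the members. They numbered 7 of 53 without mutant replicate 1, beside 7.04% of all genes, and 5 of 53 without mutant replicate 2, beside 5.99%. Without mutant replicate 3 they numbered 4 of 53, beside 6.56% of all genes, a share close to the background. Of these calls 6, 4 and 4 were lower, in the same order, whereas the shares of all genes beside them count both directions. Without wildtype replicate 3 there were 14 calls among the 53 members, beside 9.47% of all genes. DESeq2 called 11 of 53 members, beside 7.45% of all genes. The cox5ab, cox7a2l, uqcr10 and atp5f1d calls held in all 16 alternatives tried.

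The counts of each complex were also added up by library. Complex V held 5219, 5114 and 5277 CPM in mutant replicates 1 to 3, against 6106, 5585 and 5511 CPM in wildtype replicates 1 to 3. Complex IV held 1793, 1764 and 1874 CPM in the mutants, against 2250, 1993 and 1914 CPM in wildtype. The mutants lay below wildtype in both sums, with wildtype replicate 1 the highest library. Complex III averaged 1336 ± 32.3 CPM in mutants and 1493 ± 82.2 CPM in wildtype, and complex II 388 ± 6.87 CPM in mutants and 427 ± 27.1 CPM in wildtype (SD, n = 3 each). In each of the 4 sums the groups did not overlap, and the mutant mean differed from the wildtype mean by -9.12% for complex II, -10.5% for complex III, -11.8% for complex IV and -9.26% for complex V. Against wildtype replicates 2 and 3 alone the differences were -5.74%, -7.65%, -7.33% and -6.21% in the same order, still without overlap, and against wildtype replicates 1 and 3 they were -11.1%, -12.4%, -13% and -10.4%. The 48 complex I rows, with symbols starting nduf, summed to 2982 ± 51.8 CPM in mutants and 3269 ± 176 CPM in wildtype, a difference of -8.79%. This choice took in assembly factors. It also took in ndufa4 and ndufa4l, for a subunit found in complex IV in mammals, with means of 66.6 and 248 CPM in wildtype. The complex IV sum leaves these out, as well as COX5B, with means of 276 CPM in mutants and 303 CPM in wildtype. It also leaves out the COX7A2 row, with 26.4 CPM in mutants and 24.7 CPM in wildtype. A complex IV sum with these rows was not taken.

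**Figure D2:**
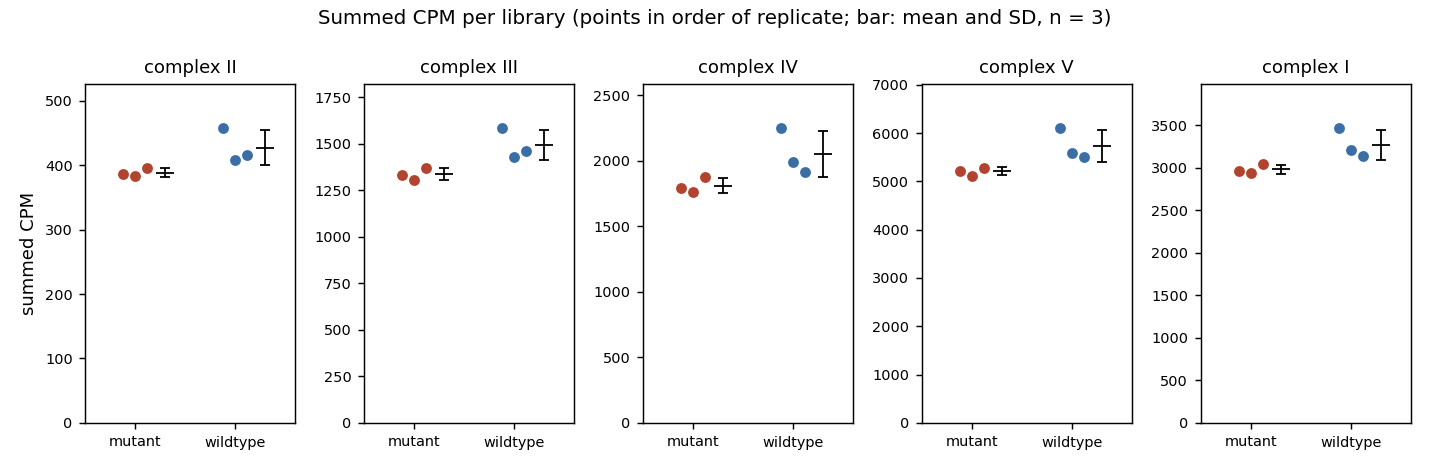
Summed CPM of the rows of each complex (y axis) in the mutant and wildtype libraries (points, in order of replicate, with mean and SD beside them, n = 3). In all 5 panels the mutant points lie below the wildtype points, and wildtype replicate 1 is the highest. The complex IV sum leaves out the COX5B and COX7A2 rows.

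In complex II the subunits themselves showed no call, and an assembly factor fell. The flavoprotein gene sdha, which carries the site of succinate oxidation and the most counts of the complex, held 158, 154 and 157 CPM in mutants, against 181, 159 and 168 CPM in wildtype (log2 fold change -0.12, edgeR adjusted p = 0.298). The mutants were lower, but mutant replicate 1 and wildtype replicate 2 differed by little. The iron-sulfur subunit gene sdhb had a log2 fold change of -0.15, and the membrane anchor genes sdhc and sdhdb had -0.05 and -0.18. The other copy of the anchor subunit, sdhda, had at most 1 count in any library and was not tested. The upper limit that a count of 0 allows is 3 counts per library, which is 0.254 to 0.349 CPM at these depths.

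The factor gene sdhaf2, whose product helps attach the flavin to Sdha, fell by 31.9%, the lowest fold change of any member tested. It held 10, 8.8 and 8.6 CPM in mutant replicates 1 to 3, against 11.8, 14.8 and 13.6 CPM in wildtype replicates 1 to 3 (log2 fold change -0.55, edgeR adjusted p = 0.00989, SE 0.13). The groups did not overlap, and wildtype replicate 1 was here the lowest of its group. It was no longer called with mutant replicate 2 left out (edgeR adjusted p = 0.0591) or with mutant replicate 3 left out (0.0607). Of the other factors, sdhaf1 and sdhaf3, which serve the iron-sulfur clusters of Sdhb, had log2 fold changes of -0.28 each, and sdhaf4, the highest of the complex, had 0.08 (edgeR adjusted p = 0.323, 0.229 and 0.778). All 4 factors had means under 14 CPM, and their intervals were wider than those of the subunits, with sdhaf1 between -0.64 and 0.08.

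Complex III had 9 of 9 members with a negative log2 fold change, in a narrow range from -0.37 to -0.12. The exception in size was uqcr10, for a small supernumerary subunit, which fell by 22.6%. It held 77.5, 69.6 and 81.8 CPM in mutants, against 105, 94.8 and 96.7 CPM in wildtype (log2 fold change -0.37, edgeR adjusted p = 0.0031, SE 0.07). No mutant library reached the lowest wildtype library. The redox subunits, cytochrome c1 (cyc1, -0.15) and the Rieske iron-sulfur protein (uqcrfs1, -0.13), did not pass. Neither did the core subunits uqcrc1 (-0.14), uqcrc2a (-0.17) and uqcrc2b (-0.12), nor the small subunits uqcrb (-0.13), uqcrh (-0.14) and uqcrq (-0.22), at edgeR adjusted p between 0.113 and 0.273.

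The row with the most counts of complex III, uqcrc1, held 244, 234 and 253 CPM in mutants, against 277, 261 and 266 CPM in wildtype. It did not overlap between the groups, yet its difference did not pass (edgeR adjusted p = 0.177). Its reads were partly shared with its neighbour nprl2, which had at most 107 counts in any library, and adding up rows that share reads left the uqcrc1 value at -0.14.

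Complex IV was the most mixed, with 3 members lower, 1 higher and 6 of 17 with a positive log2 fold change. Apart from cox6b1, the positive members had few counts and were not called (edgeR adjusted p from 0.144 to 0.793). Over all 4 complexes, 5 of 7 members with a mean under 10 CPM had a positive value, beside 4 of 46 with 10 CPM or more. The subunit 5A copy cox5ab held 75.5, 75.6 and 77.1 CPM in mutants, against 112, 89.8 and 92.9 CPM in wildtype (log2 fold change -0.37, edgeR adjusted p = 0.00554, SE 0.08). The mutants were tightly grouped below wildtype, and the value was -0.26 without wildtype replicate 1. Its sister copy cox5aa held 207, 195 and 224 CPM in mutants, against 253, 236 and 233 CPM in wildtype (-0.20, edgeR adjusted p = 0.0604).

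The gene cox7a2l, whose product joins complexes III and IV into supercomplexes in mammals, fell by 21.7%. It held 40.9, 39.5 and 42.1 CPM in mutants, against 56.4, 51.1 and 49.4 CPM in wildtype (log2 fold change -0.35, edgeR adjusted p = 0.00596, SE 0.08). The gap between the groups was wider than the range of the mutants.

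The subunit 6B genes moved in opposite directions. This subunit sits on the outer face of the complex, where its dimer forms. The cox6b1 row rose, at 44.3, 46 and 49.9 CPM in mutants, against 34.6, 37.4 and 39.1 CPM in wildtype (log2 fold change 0.33, edgeR adjusted p = 0.0112, SE 0.08). The cox6b2 row, with more counts, fell, at 222, 202 and 224 CPM in mutants, against 273, 253 and 237 CPM in wildtype (-0.23, edgeR adjusted p = 0.0357, SE 0.07). Neither gene overlapped between the groups. With mutant replicate 3 left out cox6b1 was not called (edgeR adjusted p = 0.0811). Among the fits that leave out 1 library, cox6b2 was called solely without wildtype replicate 3, and its adjusted p in the others was 0.0555 to 0.216.

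The other widely expressed complex IV genes lay between -0.21 and -0.08 and did not pass. They were cox4i1, cox6a1, cox6c, cox7a2a, cox7b, cox7c and cox8a. The row with the most counts, cox4i1, for the largest nuclear-encoded subunit, held 320, 311 and 335 CPM in mutants, against 385, 359 and 354 CPM in wildtype (log2 fold change -0.18, edgeR adjusted p = 0.0664). The groups did not overlap. Counts of cox8a were not whole in any library, and no row sharing its reads was found. The rows outside the choice by symbol, COX5B and COX7A2, had log2 fold changes of -0.13 and 0.10 (edgeR adjusted p = 0.209 and 0.566), and ndufa4 and ndufa4l, named for complex I but for a subunit found in complex IV in mammals, had 0.01 and -0.15.

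Most of the alternative forms with few counts had positive values. The fold change of cox8b was the highest of any member, with 3.37, 3.99 and 3.46 CPM in mutants, against 2.22, 2.53 and 2.58 CPM in wildtype (log2 fold change 0.55, edgeR adjusted p = 0.144, SE 0.23). The row cox7a1 held 1.77, 1.94 and 2.15 CPM in mutants, against 1.4, 1.36 and 1.66 CPM in wildtype (0.40, edgeR adjusted p = 0.466, SE 0.31). In both the mutants lay above wildtype without passing the test, at counts of 19 to 40 and of 12 to 23 per library. The subunit 4 forms cox4i1l and cox4i2 and the subunit 5B form cox5b2 had values of 0.29, 0.10 and 0.12, at edgeR adjusted p from 0.483 to 0.793. The cox6a2 row, named as a muscle form of mammals, had too few counts to test. It held 7, 9 and 7 counts in mutants, against 3, 5 and 8 counts in wildtype.

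**Figure D3:**
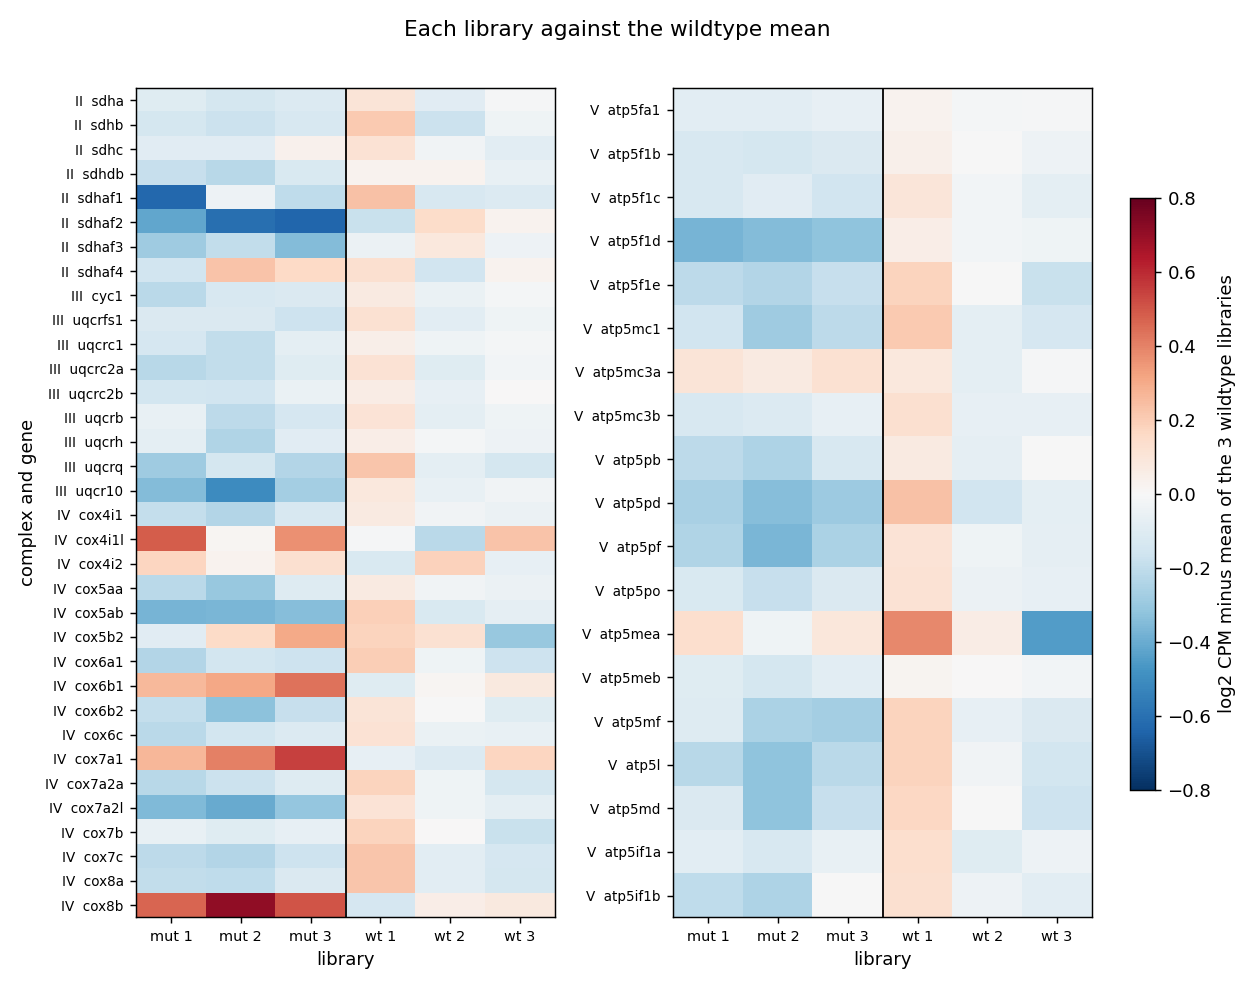
Log2 CPM of each tested member (rows, with its complex) in each library (columns, mutants left of wildtype) minus its mean over the wildtype libraries, on a colour scale where red is higher and blue is lower. Blue prevails in the mutant columns, wildtype replicate 1 is mostly red, and cox8b, cox7a1 and cox6b1 are among the rows that are red in mutants.

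Complex V had 4 members lower and 17 of 19 with a negative log2 fold change. The F1 head, where ATP is made, is built from alpha and beta subunits around a central stalk of gamma, delta and epsilon. The delta gene atp5f1d fell by 21.3%, at 122, 124 and 127 CPM in mutants, against 164, 156 and 154 CPM in wildtype (log2 fold change -0.35, edgeR adjusted p = 0.00156, SE 0.06). This was the lowest adjusted p of any member, and the gap between the groups was wider than the range within either.

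The catalytic beta gene atp5f1b, with the most counts of any member, held 1182, 1172 and 1194 CPM in mutants, against 1330, 1292 and 1259 CPM in wildtype (log2 fold change -0.13, edgeR adjusted p = 0.127, SE 0.05). Here too no library overlapped, and the interval ran from -0.24 to -0.02 before adjustment for the number of genes. The alpha gene, listed as atp5fa1, had a log2 fold change of -0.08, gamma (atp5f1c) -0.12 and epsilon (atp5f1e) -0.21, and none of these passed. Counts of atp5f1e were not whole in 5 libraries, with no partner row found.

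The peripheral stalk, which holds the head still against the turning ring, had 2 of 4 members lower. The gene atp5pf, for coupling factor 6, held 118, 108 and 117 CPM in mutants, against 150, 136 and 133 CPM in wildtype (log2 fold change -0.29, edgeR adjusted p = 0.0116, SE 0.07). Subunit d, encoded by atp5pd, held 204, 192 and 199 CPM in mutants, against 287, 219 and 230 CPM in wildtype (-0.31, edgeR adjusted p = 0.0346, SE 0.09). Neither gene overlapped between mutants and wildtype, and wildtype replicate 1 was the highest. Without that library atp5pd had a value of -0.18 (edgeR adjusted p = 0.0636), and it was not called either when any 1 mutant library was left out (0.0971 to 0.159). For atp5pf, leaving out mutant replicate 2 or 3 gave an edgeR adjusted p of 0.102 or 0.0507. The other stalk genes, atp5po and atp5pb, had -0.14 and -0.20, with atp5pb close to the threshold (edgeR adjusted p = 0.0537). The atp5pb row shared reads with its neighbour eps8l3b, which had at most 26 counts in any library. DESeq2 called atp5pb (adjusted p = 0.0405).

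Among the small membrane subunits, atp5l, for subunit g of the dimer interface, fell. It held 185, 173 and 186 CPM in mutants, against 244, 212 and 195 CPM in wildtype (log2 fold change -0.26, edgeR adjusted p = 0.0369, SE 0.08). The mutants were apart from wildtype, but leaving out any 1 library except wildtype replicate 3 gave an edgeR adjusted p of 0.053 to 0.192. Its value was -0.16 without wildtype replicate 1. The calls of cox6b2, atp5pd and atp5l were also lost without robust weights (edgeR adjusted p = 0.0723, 0.0655 and 0.0805) and with limma-voom (0.0503, 0.0583 and 0.0662). The subunit genes atp5mf and atp5md had -0.21 each and atp5meb -0.11, none passing the test. Its sister copy atp5mea had the widest relative spread among wildtype libraries of the members tested, at 39.9, 35.4 and 38.6 CPM in mutants, against 47.5, 37.9 and 26.6 CPM in wildtype. The inhibitor genes atp5if1a and atp5if1b, whose products stop the enzyme from running backwards, had -0.09 and -0.15 and overlapped between the groups.

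The c ring, which the protons turn, is encoded by several genes with the same mature product in mammals. The copy atp5mc3a had the highest fold change of complex V, with 255, 249 and 257 CPM in mutants, against 251, 224 and 236 CPM in wildtype (log2 fold change 0.10, edgeR adjusted p = 0.368, SE 0.06). The groups overlapped through wildtype replicate 1. The other copies, atp5mc1 and atp5mc3b, had -0.22 and -0.11 (edgeR adjusted p = 0.0931 and 0.335). Counts of atp5mc3a were shared with the row CU639436.1, which had at most 22 counts in any library.

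**Figure D4:**
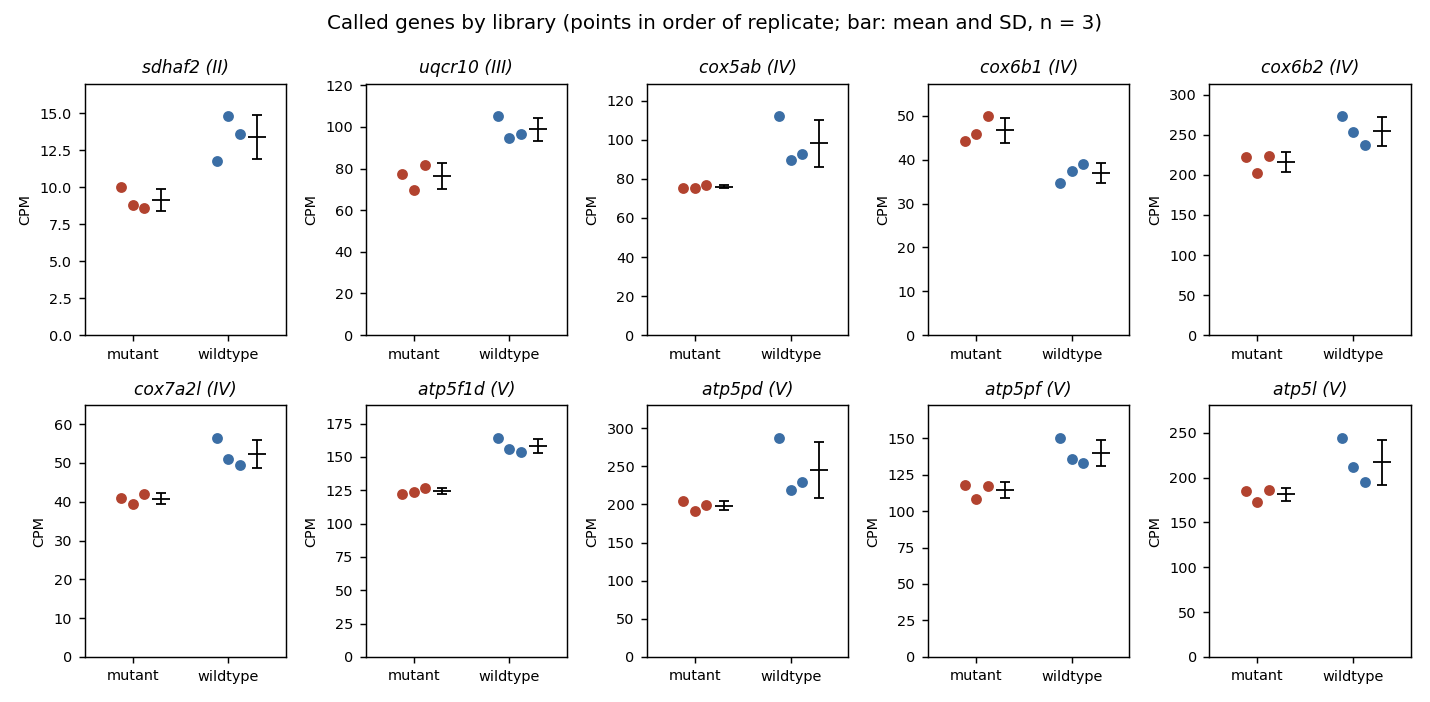
CPM (y axis, from 0) of the 10 called members in mutant and wildtype libraries (points in order of replicate; mean and SD beside them, n = 3). Only cox6b1 is higher in mutants, and in no panel do the groups overlap.

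Because copies of 1 subunit can be set against each other within a library, shares of counts were taken for each set of copies among the members. The share of cox6b1 among the cox6b1 and cox6b2 counts was 16.6%, 18.5% and 18.2% in mutants, against 11.3%, 12.9% and 14.2% in wildtype, a difference of 5.02 percentage points between means of 17.8% ± 1.02 and 12.8% ± 1.46 (SD, n = 3 each). The lowest mutant lay above the highest wildtype library, and the difference stayed between 4.26 and 5.72 points with any 1 library left out. By contrast, the share of cox5ab among the subunit 5A copies was 26.7% ± 1.14 in mutants and 28.9% ± 1.6 in wildtype, and the groups overlapped. In the c ring, atp5mc3a took 27.2%, 27.2% and 27.1% of the counts in mutants, against 23.1%, 23.9% and 25.1% in wildtype. The atp5mc1 share was 23.7% ± 0.852 in mutants and 26% ± 1.2 in wildtype, while that of atp5mc3b overlapped. The uqcrc2b share of the uqcrc2 copies was 52.3% ± 0.285 in mutants and 51.4% ± 0.854 in wildtype, without overlap. Shares of the rare forms were higher in mutants without overlap for cox8b (1.68% ± 0.187 in mutants and 1.03% ± 0.206 in wildtype), cox7a1 (2% ± 0.109 and 1.37% ± 0.274) and cox4i2 (1.54% ± 0.0637 and 1.27% ± 0.179). These 3 rest on 19 to 40, 12 to 23 and 37 to 63 counts per library, and none of the 3 genes was called. How often copies of other genes lie apart in this way was not examined. The shares of 2 further rare forms overlapped between the groups, cox4i1l at 1.05% ± 0.152 in mutants and 0.765% ± 0.133 in wildtype, and cox6a2 at 0.412% ± 0.0895 in mutants and 0.275% ± 0.133 in wildtype. Shares of sdhda and sdhdb also overlapped. So did those of atp5mea (23.5% ± 0.813 in mutants and 21.6% ± 4.6 in wildtype) and its sister copy atp5meb. The same held for atp5if1a (47.5% ± 1.77 in mutants and 46.5% ± 0.87 in wildtype) and atp5if1b. The cox7a1 share was taken against cox7a2a alone. It leaves out the COX7A2 row, which held 26.4 ± 1.9 CPM in mutants and 24.7 ± 2.81 CPM in wildtype. With that row counted, the cox7a1 share would be smaller in both groups. All of these shares rest on raw counts, with no test, and do not depend on scaling between libraries.

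**Figure D5:**
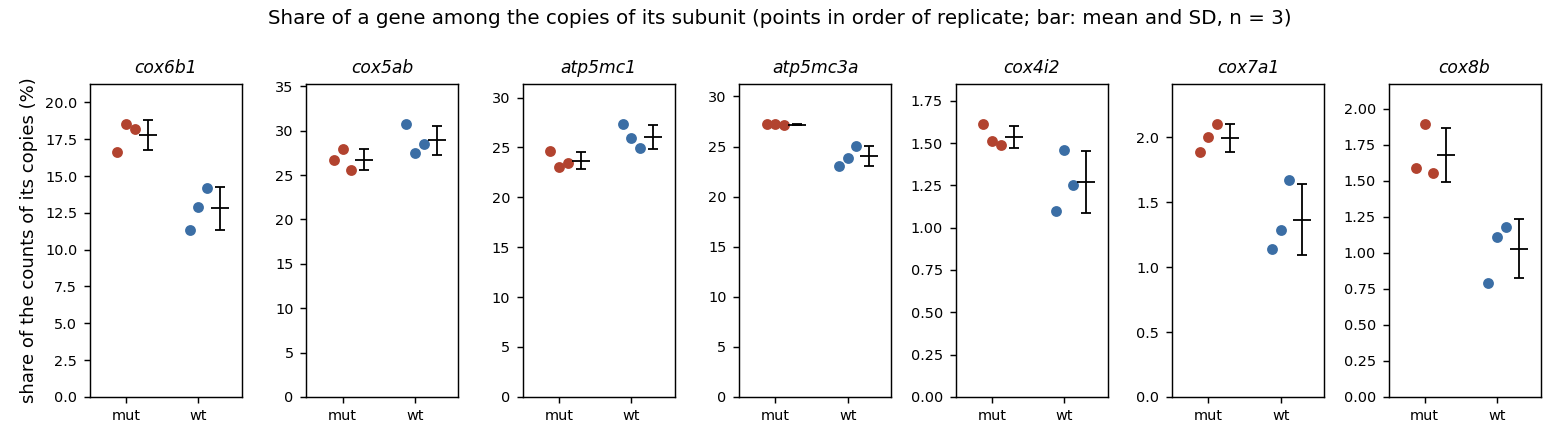
Share of a gene in the counts of the copies of its subunit among the members (y axis, percent, from 0) in mutant (mut) and wildtype (wt) libraries (points in order of replicate; mean and SD beside them, n = 3). The cox7a1 share leaves out the COX7A2 row. The groups are apart for all panels other than cox5ab. Not drawn are the uqcrc2 copies, which were apart, and sdhda, cox6a2, atp5mea and atp5if1a, whose shares overlapped.

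Genes that build, supply and accompany the complexes were examined in the same fit. Among 46 tested complex I genes, chosen by symbols starting nduf, 9 fell and 1 rose, 21.7% of them beside 11.7% of all genes tested. Their median log2 fold change was -0.16, and ndufaf4 and ndufaf5 among the 9 are assembly factors. In the lower direction 19.6% were called, beside 5.87% of all genes, and 84.8% had a negative value, beside 51%. Of the 9, ndufs5, ndufv3 and ndufa1 lay close to the threshold (edgeR adjusted p = 0.0426 to 0.0459). Complex I calls numbered 6 with DESeq2, 7 with upper quartile scaling and 13 with the replicate number as a block. The accessory subunit ndufb3 held 49.3, 47.8 and 56.6 CPM in mutants, against 94.9, 73.6 and 72.3 CPM in wildtype (-0.64), ndufa2 and ndufv2 fell as well (-0.36 and -0.32), and ndufv1, which binds NADH, rose (0.44; edgeR adjusted p = 0.00154, 0.00441, 0.00802 and 0.000338, in the order named). Of 6 complex III assembly genes uqcc2 (-0.32) and the Rieske-inserting bcs1l (-0.36) fell, with a list median of -0.26. They made up 33.3% of the list, beside 5.87% of all genes called lower. Both lay close to the threshold (edgeR adjusted p = 0.0446 and 0.0451). Neither was called with DESeq2, with the replicate number as a block, with upper quartile scaling or without wildtype replicate 3. The 28 genes listed for complex IV assembly and copper supply also took in timmdc1, a complex I assembly factor. Of the 28, 3 were called, 10.7% beside the 11.7% of all genes called in either direction, a share near the background. They were the membrane insertase gene oxa1l (-0.35), the copper chaperone sco2 (-0.67) and coa3a (-0.30), all lower in mutants, and the list median was -0.12. The sco2 and coa3a calls lay close to the threshold (edgeR adjusted p = 0.0404 and 0.0444, beside 0.0104 for oxa1l). The sco2 row held 5.98, 4.5 and 5.89 CPM in mutants, against 11.2, 9.07 and 6.26 CPM in wildtype. Calls in this list numbered 0 with DESeq2, 1 with limma-voom or without wildtype replicate 2, and 2 or 3 with other scalings or filters. In the lower direction the 10.7% stood beside 5.87% of all genes, and 78.6% of the list had a negative value, beside 51%. Of 4 complex V assembly genes edgeR called 0, and the list median was 0.01. Its unadjusted p was under 0.05 for 2 of the 4, beside 5160 of all 20229 genes tested. With any 1 mutant library left out, 5 or 6 complex I genes, 0 complex III assembly genes and 0 or 1 complex IV assembly genes were called. In these fits the share called among all genes was also lower, at 5.99% to 7.04%.

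For electron carriers, 2 of 13 genes of cytochrome c and coenzyme Q supply fell. The shares called in either direction, 15.4% of carrier genes, 10% of regulators and 14.3% of citric acid cycle genes, lay near the 11.7% of all genes tested. By direction, all carrier and regulator calls and 9.52% of citric acid cycle genes were lower, beside 5.87% of all genes. Negative log2 fold changes made up 69.2%, 55% and 81% of the 3 lists in that order, beside 51% of all genes. Mutants lay wholly below wildtype in 30.8%, 25% and 57.1%, beside 15.4% of all genes. The cytochrome c gene cycsb held 206, 195 and 207 CPM in mutants, against 237, 235 and 238 CPM in wildtype (log2 fold change -0.22, edgeR adjusted p = 0.0243), and coq3, a methyltransferase of coenzyme Q synthesis, fell by 0.59 on the log2 scale (edgeR adjusted p = 0.00401). The other cytochrome c copy, cycsa, had 0 counts in every library. Among 20 regulators of mitochondrial gene expression slirp (-0.53) and lrpprc (-0.33) fell (edgeR adjusted p = 0.00063 and 0.00784). Their products form a complex that stabilizes mitochondrial mRNA in mammals. No further regulator passed, and the list median was -0.05. Among 21 genes of the citric acid cycle and pyruvate entry, dlst (-0.21) and pdhb (-0.20) fell and mdh1ab, for a cytosolic malate dehydrogenase, rose (0.80), with a median of -0.08. Both falls lay close to the threshold (edgeR adjusted p = 0.0457 and 0.0458, beside 0.00135 for mdh1ab). This list had 1 call with upper quartile or total count scaling, with no low-count filter, without robust weights or without wildtype replicate 2. It had 4 with DESeq2 and 4 with limma-voom. With 1 mutant library left out, 1 gene each of the carrier and citric acid cycle lists and 1 or 2 regulators were called. In these fits 5.99% to 7.04% of all genes were called.

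Some markers of tissues differed between the groups as well. Beside the 11.7% called among all genes, the shares called were 35% of fast muscle, 33.3% of slow muscle, 50% of neuron and 33.3% of liver and yolk layer markers, and, near the background with 1 call each, 14.3% of heart, 8.33% of ionocyte and 11.1% of erythroid markers. Of 20 fast muscle markers 6 rose and 1 fell, and their sum ran from 71031 to 74620 CPM in mutants and from 67570 to 71358 CPM in wildtype. Of 6 slow muscle markers 2 rose, with sums from 1624 to 1654 CPM in mutants and 1329 to 1491 CPM in wildtype. Of 7 heart markers with a row 1 rose, with sums from 1403 to 1567 CPM in mutants and 1298 to 1333 CPM in wildtype. Most of the heart sum was the called marker actc1a, with means of 1345 CPM in mutants and 1185 CPM in wildtype. All 7 had positive log2 fold changes, from 0.11 to 0.36, and tnni1b was listed for both slow muscle and heart. Of 8 neuron markers 4 fell, with sums from 1394 to 1415 CPM in mutants and 1463 to 1501 CPM in wildtype. Of 12 markers of ionocytes, the mitochondria-rich skin cells, 1 rose, with sums from 916 to 953 CPM in mutants and 891 to 902 CPM in wildtype. In 41.7% of the ionocyte markers mutants lay wholly above wildtype and in 8.33% wholly below, beside 15.1% and 15.4% of all genes. Of 9 erythroid markers 1 rose, 8 had a positive log2 fold change, and the median was 0.52. Mutants lay wholly above wildtype in 55.6% of them, beside 15.1% of all genes. Wildtype replicate 1 had the highest sum at 8000 CPM, against 3395 and 4164 CPM in wildtype replicates 2 and 3, with 5696 to 6099 CPM in mutants. Against wildtype replicates 2 and 3 alone the mutant mean was higher by 55%, without overlap. Against wildtype replicates 1 and 3 it differed by -3.69%, with overlap. Of 6 liver and yolk layer markers 2 fell, and their sums overlapped. No marker with a row was at 0 in any library. Leaving out wildtype replicate 1 gave 8 erythroid calls, and leaving out any other library than wildtype replicate 1 gave 3 or 4 fast muscle calls. With 1 mutant library left out, 5.99% to 7.04% of all genes were called. The calls then numbered 1 to 3 for neurons, 1 or 2 for slow muscle and for liver and yolk layer, 0 to 2 for heart and 0 or 1 for ionocytes and for erythroid cells. The part of these tissues in the values of the respiratory genes was not tested.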

How the data were processed

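RNA of whole embryos, enriched for poly-A RNA per the labels' protocols, was sequenced in 3 mutant and 3 wildtype libraries. The authors deposited 1 table of expected counts per gene, not scaled between libraries; STAR, RSEM and DESeq2 with build danRer11 are named in the submitters' processing notes, without versions or annotation. Of its values, 18.8% are not whole (tolerance 0.005), as where reads are shared between rows, and strand use in counting is not given, so overlapping genes are uncertain. Columns were assigned by genotype and number. Rounded counts went into edgeR 4.0.16 (R 4.3.3): filterByExpr (minimum count 10, 20229 genes kept), TMM scaling and the robust quasi-likelihood test, with Benjamini-Hochberg adjustment over all genes tested and calls at 0.05. Each SE was obtained from the log2 fold change and the F statistic, as its size over the root of F. CPM are given with the SD of a group's 3 libraries. The fit was checked on simulated counts. Floors and intervals cover counting error only, or the spread between these libraries. Whether the pools stem from different clutches is not in the labels, so the p-values measure spread between these libraries, which may be technical.

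Members and gene lists were chosen with earlier results of these data known. Named with values in each library are called members, the highest and lowest fold change and the most counts of each complex, and sister copies of called members; of other lists, up to 4 called genes; further members were named after their values were seen. All 55 symbols are in a RefSeq gene table of assembly GRCz12tu, used for names and neighbours alone. To find rows that share reads, the 5732 rows that are not whole in 4 or more libraries were searched for pairs whose sums are whole in each library (tolerance 0.011). Alternatives were other scalings, other filters, a block for the replicate number, edgeR with no robust weights, DESeq2 1.42.0, limma-voom (limma 3.58.1), summed rows and leaving out each library. Python 3.11.15 with matplotlib 3.10.9 drew the figures.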

Additional observations from a re-analysis of the deposited data

How the results depend on the processing

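The number of genes called in all was 2372, and it was 1507 with DESeq2 and 1242 to 2658 with 1 library left out. Calls among the members numbered 10, and 4 to 14 with 1 library left out, of which 4 to 13 were lower (against 9) and 0 to 1 higher (against 1). Under the other alternatives they numbered 7 to 11. With the replicate number as a block, 2470 genes and the same 10 members were called. Same-numbered libraries did not deviate together, with correlations of -0.0497, -0.00251 and 0.0216, so the numbers were not taken as pairs.

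Without wildtype replicate 1 the median log2 fold change was -0.11 for complex II and -0.07 for complex IV, the highest values with 1 library left out, and the lowest were -0.20 and -0.21. Members with a negative value numbered 42 to 46 of 53 in all 16 alternatives. Of 848 values of single members under these alternatives, 25 lost the call, 6 gained it and 4 changed sign. Those that changed sign were sdhc (0.01) and cox7b (0.02) without wildtype replicate 1, and cox5b2 (-0.02) and atp5mea (-0.16) without wildtype replicate 3. With 1 library left out, sdhc ran from -0.09 to 0.01, cox5b2 from -0.02 to 0.23 and atp5mea from -0.16 to 0.24. The causes were not tested. Depth limits the rare forms: sdhda and cox6a2 could not be tested, and the interval of cox7a1 ran from -0.26 to 1.05.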
